A study of Homo sapiens with 82 samples.

Results

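H3K27ac, the acetylation of lysine on histone H3 that marks active promoters and enhancers, was compared between control and drug-treated HT29 cells, an established human colorectal adenocarcinoma line. The sites described here carried H3K27ac in DMSO-treated cells and had no called H3K27ac peak after rosiglitazone. They were chosen by their peak calls: a site was the merged span of overlapping peaks of both DMSO replicates, and a member overlapped no peak of any of the 4 rosiglitazone libraries, which were made after 24 and 48 h. Of 19892 DMSO sites, 586 met this rule, or 2.95%, and the other 19306 sites are called kept. "Lost" therefore means that no peak was called. It does not mean that no reads were there.

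Cells received the DMSO carrier, 10 μM rosiglitazone, a PPARG agonist, or 10 μM GW3965, an LXR agonist. ChIP-seq had 2 libraries per group. H3K27ac and RNA polymerase II (RNAP2) were profiled with DMSO and with each drug at 24 and 48 h. JunD was profiled with DMSO alone, PPARG after 2 and 48 h of rosiglitazone, and LXRB and LXRA after 2 and 48 h of GW3965. LXRA was precipitated through a FLAG tag in HT29 cells that carried a tagged transgene, so these cells differ from the others. All groups came from the same line. The labels call the DMSO libraries controls and give them no time, so DMSO is not matched to either time point. The labels do not say whether replicates came from separate cultures, and the spread between them may be technical. With 2 libraries against 2, an exact two-sided permutation test cannot go below p = 0.333, so values are given by library and no p is given.

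Peroxisome proliferator-activated receptor gamma (PPARG) and the liver X receptors (LXRA and LXRB) are nuclear receptors that bind DNA as partners of retinoid X receptors and recruit coactivators when an agonist is bound. Coactivators include histone acetyltransferases, which can place H3K27ac. JunD belongs to the AP1 family, which often occupies enhancers before other factors arrive, and RNAP2 marks transcribed genes and many active enhancers.

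The H3K27ac libraries held between 23015 peaks, in DMSO replicate 1, and 31824 peaks, in replicate 1 after 48 h of GW3965. Peaks covered between 49.4 and 75.5 Mb. Every peak has a score from the peak caller, whose formula is not given in the sources used here. MACS, the caller named by the submitters, by convention writes a log-scaled p that is higher for stronger peaks. No file held a peak below 100, and 9733 peaks of all libraries scored exactly 3100, with 984 above, so equal scores of 3100 do not show equal signal. A score rises with the depth of a library, and the depth is unknown here. Shares and median scores are therefore set against the kept sites in the same library. Scores of single named sites are printed by library and are not read as changes between libraries. At kept sites with a GW3965 peak, the median log2 ratio of GW3965 over DMSO H3K27ac scores ran from -0.917 to 1.19 between pairs of libraries. The highest was for replicate 1 at 24 h over DMSO replicate 1.

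Lost sites had low H3K27ac scores in DMSO-treated cells. The lower of the DMSO scores had a median of 127 at lost sites, with a range from 100.1 to 526, against 308 at kept sites. In replicate 1 the median score was 129.5 at lost and 316 at kept sites, and in replicate 2 it was 199.96 and 621. Lost sites were also narrower, with a median width of 1624 bp against 2512 bp. These values took part in the choice of the sites and describe them only. The share of DMSO sites that were lost fell with the score, from 13.0% (95% Wilson interval 11.6 to 14.5, counting error only) of 2145 sites with a lower score of 100 to 125, to 9.62% at 125 to 150, 3.54% at 150 to 200 and 1.39% at 200 to 300. Only 5 of 9852 sites scored 300 or more and were lost.

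**Figure D1:**
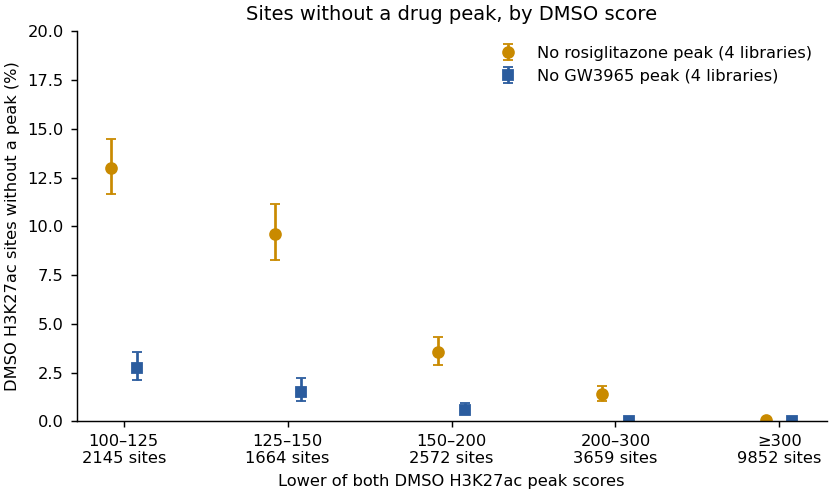
Percentage of DMSO H3K27ac sites without a peak in any of 4 rosiglitazone libraries (circles) or any of 4 GW3965 libraries (squares), by class of the lower DMSO peak score; bars are 95% Wilson intervals. Rosiglitazone shares fall from 13.0% to 0.051%, and GW3965 shares lie below them in each class. Over all classes the order is the reverse with replicate 2 libraries alone, where 877 sites lack a rosiglitazone peak and 1360 a GW3965 peak.

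Loss at a single time point was more frequent. No rosiglitazone peak was called at 1155 DMSO sites at 24 h and at 1062 at 48 h. Of these, 569 had a peak again at 48 h and 476 had still had one at 24 h, which leaves the 586. A further 563 sites overlapped a peak in 1 of the 4 rosiglitazone libraries. They lie just outside the rule, with a median lower score of 138 and a median width of 1713 bp. The strongest of them, at chr3:128077616-128082021 (hg19), had DMSO scores of 537 and 601 and a single rosiglitazone peak of 144 in replicate 1 at 48 h. The weakest lost site, at chr11:111287219-111288912, had a lower DMSO score of 100.1.

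The count depends on how strict the DMSO call is. Peaks of DMSO replicate 2 alone gave 3112 lost sites, and peaks of replicate 1 alone gave 831. A minimum score of 200 in both replicates left 56. Asking for no rosiglitazone site in both replicates, in place of no peak in any library, raised the number to 1503. The nearest rosiglitazone peak lay between 5 and 622058 bp from a lost site, with a median of 9703 bp, and 71 lost sites had one within 1000 bp.

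The 10 lost sites with the highest lower DMSO scores are shown by library. The files give coordinates on hg19. Gene annotation of that build was not used here, so the sites are named by position alone. At chr12:110257614-110262110, a span of 4497 bp, H3K27ac scores were 526 and 697 in DMSO replicates 1 and 2, 444 and 407 after 24 h of GW3965 and 1361 and 295 after 48 h. RNAP2 scored 183 and 269 there in DMSO-treated cells and had a peak in replicate 2 alone with rosiglitazone, with a score of 266 at 24 h and 182 at 48 h. GW3965 therefore left a peak in all 4 H3K27ac libraries at the strongest lost site.

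The second site, chr22:21319259-21321487, scored 502 and 674 in DMSO, 1148 and 363 after 24 h of GW3965 and 575 and 187 after 48 h. It had no RNAP2 peak in DMSO or with rosiglitazone. With GW3965, RNAP2 scored 200 in replicate 1 alone at 24 h and 220 in replicate 2 alone at 48 h. At chr4:114822824-114824521 the scores were 324 and 405 in DMSO, 336 and 395 after 24 h of GW3965 and 766 and 414 after 48 h. This site had an RNAP2 site in DMSO-treated cells, with scores of 422 and 445, and LXRA peaks of 738 and 369.7 after 2 h of GW3965. RNAP2 was found in replicate 2 of each rosiglitazone time, at 139 and 133, and not in replicate 1.

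At chr8:142322057-142331139, the widest lost site with 9083 bp, H3K27ac scored 287 and 1354 in DMSO. GW3965 replicate 1 scored 714 at 24 h and 387 at 48 h, and replicate 2 had no peak at either time. LXRA peaks of 518 and 559.5 were present at 2 h, and of 128 and 439 at 48 h, without an RNAP2 peak in any library. At chr4:24782262-24784584 the pattern of replicates was the opposite at 24 h: no GW3965 peak in replicate 1 and a score of 1817 in replicate 2, against 357 and 275 in DMSO.

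Over all 10 sites, GW3965 replicate 1 had a peak at 9 sites at 24 h and at 10 sites at 48 h, while replicate 2 had one at 7 and 4. RNAP2 peaks were present in DMSO at 4 and 5 of the 10, in the rosiglitazone libraries at 1 to 3 and in the GW3965 libraries at 2 to 5. None of them had a JunD peak in either replicate.

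**Figure D2:**
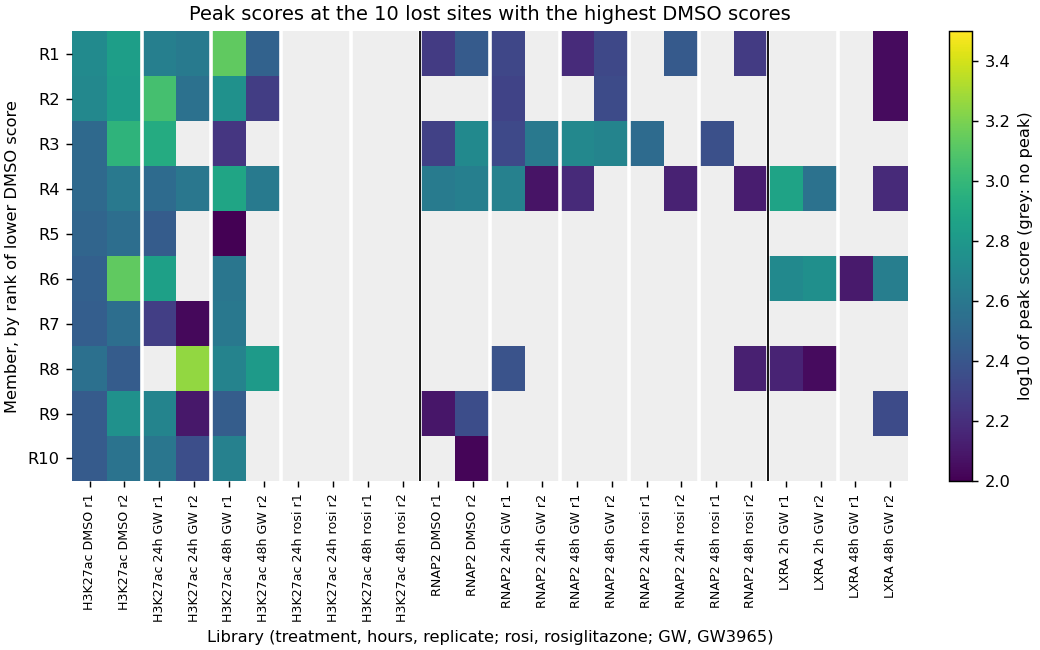
Peak scores, on a log10 scale, of the 10 lost sites with the highest lower DMSO H3K27ac scores (rows, R1 the highest at 526) in 24 libraries (columns), with no peak in grey. The 4 rosiglitazone H3K27ac columns are empty by the rule, the 4 GW3965 columns hold 9, 7, 10 and 4 peaks, and LXRA peaks after 2 h occur at R4, R6 and R8.

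Most lost sites still had H3K27ac with the LXR agonist in some library. A peak in at least 1 of 4 GW3965 libraries overlapped 537 of the 586 lost sites, or 91.6% (89.1 to 93.6), against 99.7% of kept sites. Over all DMSO sites, 0.503% had no GW3965 peak in any library. These 100 sites included 49 of the lost sites, which is 8.36% of the lost sites and 49% of the 100. Both lists use the same DMSO libraries and favour weak DMSO peaks, so the overlap is given as a count.

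The libraries disagreed on how many lost sites kept H3K27ac with GW3965. At 24 h, replicate 1 had a peak at 69.8% of lost sites and replicate 2 at 43.7%, and at 48 h the shares were 75.8% and 35.5%. Means were 56.7% ± 18.5 at 24 h and 55.6% ± 28.5 at 48 h (SD, n = 2). Among lost sites, 112 had a peak in replicate 1 at both times and in no replicate 2 library, while 4 showed the opposite. Replicate 1 of GW3965 also had peaks at more kept sites, 95.7% and 97.1% against 88.2% and 87.4% in replicate 2.

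To set lost and kept sites of like lower DMSO score and width side by side, kept sites were weighted. The weights gave 5 classes of lower DMSO score and 5 classes of width the same shares as among the lost sites. The weighted kept sites had GW3965 peaks at 84.0% and 73.4% at 24 h and at 88.8% and 73.0% at 48 h. Lost sites were below them in each of the 4 libraries, by 13.0 to 37.5 percentage points. The gap was larger in both replicate 2 libraries. Lost sites had been chosen for missing H3K27ac calls in other libraries, and the higher DMSO score was not part of the weights. The part of this choice in the gap was not tested. A GW3965 site, with peaks of both replicates, was present at 24 or 48 h at 291 lost sites, or 49.7% (45.6 to 53.7), and at 81.1% of weighted kept sites. All 4 GW3965 libraries had a peak at 118 lost sites, or 20.1%, against 49.0% of weighted kept sites.

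The difference between 586 sites lost with rosiglitazone and 100 lost with GW3965 rested on the GW3965 replicate 1 libraries. With replicate 1 of each time alone, 959 DMSO sites had no peak with rosiglitazone and 289 had none with GW3965. With replicate 2 alone the order was the reverse, 877 with rosiglitazone and 1360 with GW3965. When a site of both replicates was asked for, 1503 DMSO sites had none with rosiglitazone at either time and 1594 had none with GW3965. A stronger effect of either drug on the number of sites is therefore not shown by these calls.

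**Figure D3:**
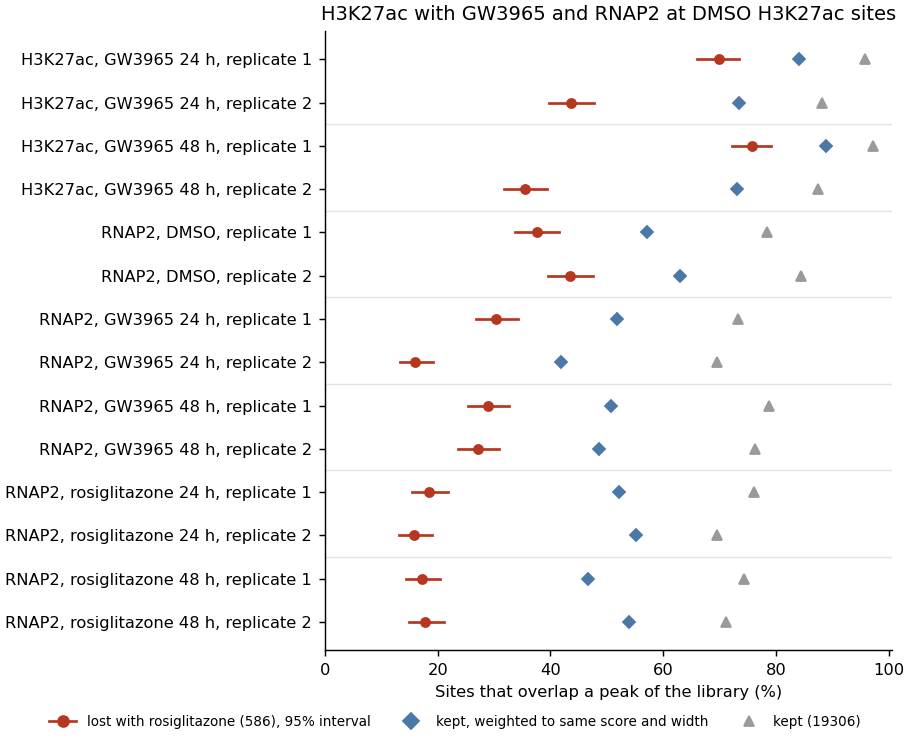
Percentage of DMSO H3K27ac sites that overlap a peak of each GW3965 H3K27ac library and each RNAP2 library, for 586 lost sites (circles, with 95% Wilson intervals), kept sites weighted to the same classes of score and width (diamonds) and all 19306 kept sites (triangles). Circles lie left of diamonds in all 14 libraries, and RNAP2 circles with rosiglitazone sit between 15.9% and 18.4%, below those of DMSO at 37.5% and 43.5%.

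RNAP2 was not used to choose the sites. In DMSO-treated cells 190 lost sites overlapped an RNAP2 site of both replicates, or 32.4% (28.8 to 36.3), against 75% of all DMSO sites and 53.2% of weighted kept sites. By library, RNAP2 peaks were present at 37.5% and 43.5% of lost sites in DMSO, with a mean of 40.5% ± 4.22 (SD, n = 2). After rosiglitazone the mean was 17.2% ± 1.81 at 24 h and 17.5% ± 0.362 at 48 h. All 4 rosiglitazone libraries, at 15.9% to 18.4%, lay below both DMSO libraries.

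With GW3965, RNAP2 peaks were present at 30.4% and 16.04% of lost sites at 24 h and at 28.8% and 27.1% at 48 h. These shares were also below both DMSO values. They were above all 4 rosiglitazone values in 3 of 4 libraries, and replicate 2 at 24 h lay within the rosiglitazone range. Weighted kept sites fell less: RNAP2 peaks were at 57.2% and 63.0% in DMSO, at 46.6% to 55.2% with rosiglitazone and at 41.8% to 51.9% with GW3965. There the ranges of both drugs overlapped. The RNAP2 and H3K27ac libraries of a condition were called against the same input library, and the part of that input in these shares was not tested.

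RNAP2 was followed at the 190 lost sites that held it in DMSO-treated cells. No RNAP2 peak remained in any rosiglitazone library at 55 of them, or 28.9% (23.0 to 35.8), and none in any GW3965 library at 31, or 16.3% (11.7 to 22.2). Among 14728 kept sites with RNAP2 in DMSO, 1.89% had no RNAP2 peak with rosiglitazone and 3.001% had none with GW3965. RNAP2 scores at lost sites were lower to begin with, with a median lower DMSO score of 184 against 342. The class of 100 to 150 lies close to the limit of 100, and a missing RNAP2 peak does not mean that no reads were there. In this class, no RNAP2 peak was called with rosiglitazone at 39 of 70 lost sites, 55.7% (44.1 to 66.8). Among 1960 kept sites the share was 10.7%. The same class with GW3965 gave 31.4% of lost and 14.3% of kept sites. Within the class of 150 to 250, the shares were 25.9% and 1.92% with rosiglitazone and 13.8% and 3.69% with GW3965. Above 250, no RNAP2 peak was called with rosiglitazone at 1 of 40 and 0 of 22 lost sites. The kept sites in these comparisons were not weighted by H3K27ac score or width. Kept sites with RNAP2 in DMSO had a median width of 2692.5 bp, against 1845.5 bp at the 190 lost sites. The part of width and H3K27ac score in these shares was not tested.

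**Figure D4:**
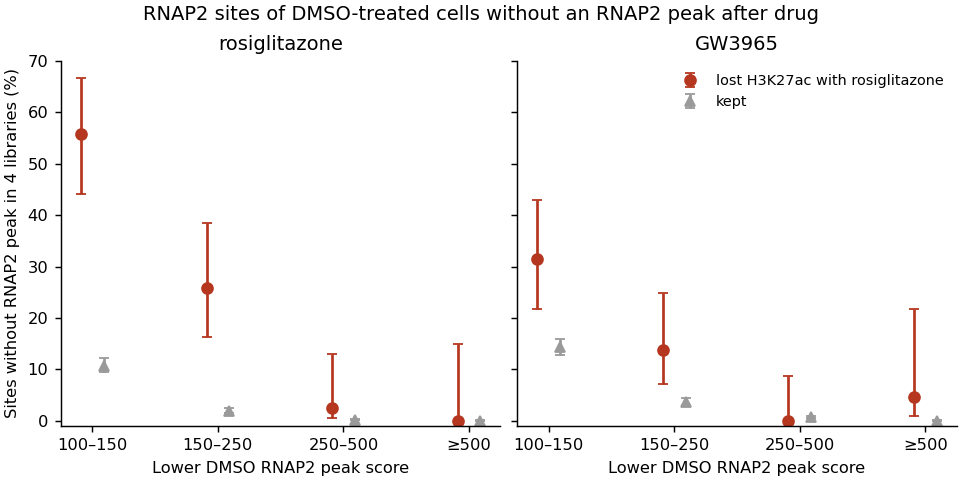
Percentage of sites with RNAP2 in DMSO-treated cells that had no RNAP2 peak in any of 4 libraries of rosiglitazone (left) or GW3965 (right), by class of the lower DMSO RNAP2 score, for sites that lost H3K27ac with rosiglitazone (circles) and kept sites (triangles), with 95% Wilson intervals. At scores of 100 to 150 the lost sites stand at 55.7% and 31.4% and the kept sites at 10.7% and 14.3%. Kept sites are not weighted by H3K27ac score or width.

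RNAP2 peaks were missing with rosiglitazone and present in at least 1 GW3965 library at 37 of the 190 sites, or 19.5%, and the opposite was seen at 13. Among kept sites with RNAP2 in DMSO, which were not weighted, these shares were 1.21% and 2.32%. The strongest of the 37, chosen after its values were seen, was chr20:12989283-12991013. RNAP2 scored 275 and 289 there in DMSO, 214.5 and 195 after 48 h of GW3965, and was not called in the 4 rosiglitazone libraries or after 24 h of GW3965. H3K27ac at the same site scored 236 and 206 in DMSO and 183 and 379 after 48 h of GW3965. After 24 h of GW3965 it had no peak in replicate 1 and scored 252 in replicate 2.

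Loss of the H3K27ac peak did not always go with loss of the RNAP2 peak. At 46 of the 190 sites, or 24.2%, RNAP2 was called in all 4 rosiglitazone libraries, against 71.8% of kept sites with RNAP2. At chr20:25275026-25279025, chosen after its values were seen, RNAP2 scored 3100 in all 10 libraries, JunD scored 1727 and 3100, and LXRB scored 370.04 and 819 after 48 h of GW3965. Its H3K27ac scores in DMSO were 119 and 143, close to the limit of 100. A similar site at chr7:1584940-1586563 had RNAP2 scores of 2172 or more in every library and LXRB scores of 1557 and 3233 at 48 h, with H3K27ac at 194 and 364 in DMSO. Where RNAP2 was not a site in DMSO, it seldom appeared. With rosiglitazone at 24 or 48 h, 8 of 396 lost sites, or 2.02%, had an RNAP2 site, against 16.4% of such kept sites. With GW3965, 36, or 9.09%, had one, against 31.2% of such kept sites. The kept sites in this paragraph were not weighted by score or width. Those with RNAP2 had the higher DMSO RNAP2 scores and the larger widths given above.

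RNAP2 followed the number of rosiglitazone libraries with an H3K27ac peak. An RNAP2 site in DMSO was present at 32.4%, 41.0%, 44.4%, 52.0% and 80.8% of DMSO sites with a peak in 0, 1, 2, 3 and 4 rosiglitazone libraries. With rosiglitazone at 48 h the shares were 10.6%, 15.99%, 24.3%, 29.5% and 68.8%. The median lower DMSO score rose alongside, from 127 to 352, so these steps are not separate from the strength of the H3K27ac peak.

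JunD, the AP1 factor, was rare at lost sites. A JunD site of both replicates overlapped 18 of 586, or 3.07% (1.95 to 4.80), against 19.4% of all DMSO sites and 15.2% of weighted kept sites. By library the shares were 3.92% and 4.61% at lost sites and 17.1% and 18.5% at weighted kept sites, so the gap was larger than the spread between libraries. All 18 overlapped an RNAP2 site in DMSO-treated cells, and 16, or 88.9%, overlapped a receptor site, against 98.7% and 92.9% of kept JunD sites. At kept sites JunD changed little with the H3K27ac score, from 16.8% at scores of 100 to 125 to 17.1% at 200 to 300 and 22.6% at 300 or more. At lost sites of the lower 2 of these classes it was found at 3.94% and 1.96%. At chr2:74452818-74454600, chosen after its values were seen, JunD scored 2857 and 3230 and RNAP2 2586 and 3100 in DMSO, while H3K27ac scored 112 and 101.9.

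PPARG, the receptor that rosiglitazone binds, occupied few lost sites. At 2 h a PPARG site overlapped 33 lost sites, or 5.63% (4.04 to 7.80), against 26.7% of all DMSO sites and 24.2% of weighted kept sites. At 48 h it overlapped 4, or 0.683% (0.266 to 1.74), against 16.8% and 14.9%. By library, lost sites had PPARG peaks at 14.0% and 7.34% at 2 h and at 3.41% and 0.853% at 48 h. Weighted kept sites had them at 34.8% and 26.0% at 2 h and at 26.6% and 15.0% at 48 h. Each lost-site value was below the lowest kept value of its time point.

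Of the 33 lost sites with PPARG at 2 h, 4 had it again at 48 h, or 12.1% (4.82 to 27.3), against 61.2% of 5277 kept sites. PPARG scores at 2 h were lower at lost sites, with a median of 154 against 353. At scores under 200, PPARG was found again at 1 of 22 lost and 20.1% of kept sites, and the intervals of 0.807 to 21.8% and 18.1 to 22.1% overlapped. At 200 or more it was found again at 3 of 11 lost sites, 27.3% (9.75 to 56.6), and at 77.9% of kept sites. Scores still differed within that class, with a median lower 2 h score of 299 at lost and 539 at kept sites.

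The 4 lost sites with PPARG at 48 h are given in full. At chr17:55638110-55639417 PPARG scored 859 and 566 at 2 h and 444 and 314 at 48 h, and no LXR or JunD peak was called. At chr1:202829657-202831521 it scored 264 and 275 at 2 h and 169 and 165 at 48 h. At chr17:77888636-77891431 it scored 975 and 489.6 at 2 h and 382 and 149 at 48 h. The latter site was co-occupied by LXRA, LXRB and JunD, kept RNAP2 in all 10 libraries and had H3K27ac scores of 268 and 441 in DMSO and 1584 and 965 in GW3965 replicate 1 at 24 and 48 h, with no peak in replicate 2. A rosiglitazone H3K27ac peak lay 43 bp from its edge. At chr18:43372858-43373903 PPARG scored 385 and 132 at 2 h and 249 and 113 at 48 h. LXRA was called at 3 of these 4 sites at both times.

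Among the receptors, LXRA was found at the largest share of lost sites, as it was of kept sites. It also had the most sites, 18389 at 2 h and 17326 at 48 h. PPARG had 14249 and 8317, and LXRB had 3881 and 9218. After 2 h of GW3965 an LXRA site overlapped 130 lost sites, or 22.2% (19.0 to 25.7). The share was 37.9% of all DMSO sites and 33.5% of weighted kept sites. After 48 h it overlapped 79, or 13.5% (10.95 to 16.5), against 39% and 29.7%. The LXRA libraries differed between replicates, with peaks at 37.0% and 23.0% of lost sites at 2 h and at 14.3% and 25.4% at 48 h. Lost sites lay below the weighted kept sites in each library, where the shares were 49.3%, 34.0%, 30.2% and 46.6%, but across libraries the ranges overlapped at 2 h. LXRB sites overlapped 15 lost sites at 2 h, or 2.56%, against 12.9% of all DMSO sites and 7.68% of weighted kept sites. At 48 h they overlapped 45, or 7.68%, against 27% and 16.5%.

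LXRA at 2 h was found again at 48 h at 61 of 130 lost sites, 46.9% (38.6 to 55.5), and at 77.7% of kept sites. With lower 2 h scores under 200 the shares were 25.4% of 63 lost sites and 60.8% of kept sites. With scores of 200 or more they were 67.2% of 67 and 87.9%. In the latter class the median lower 2 h score was 359 at lost and 417 at kept sites. For LXRB the shares were 12 of 15 lost sites, 80.0% (54.8 to 93.0), and 90.4% of kept sites, with overlapping intervals. By the lower of both 2 h scores, the strongest LXRA site among lost sites, at chr10:3440913-3442614, scored 2249 and 1800 at 2 h and 1034 and 1138 at 48 h, where H3K27ac scored 107 and 222 in DMSO. This site was chosen after its values were seen.

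**Figure D5:**
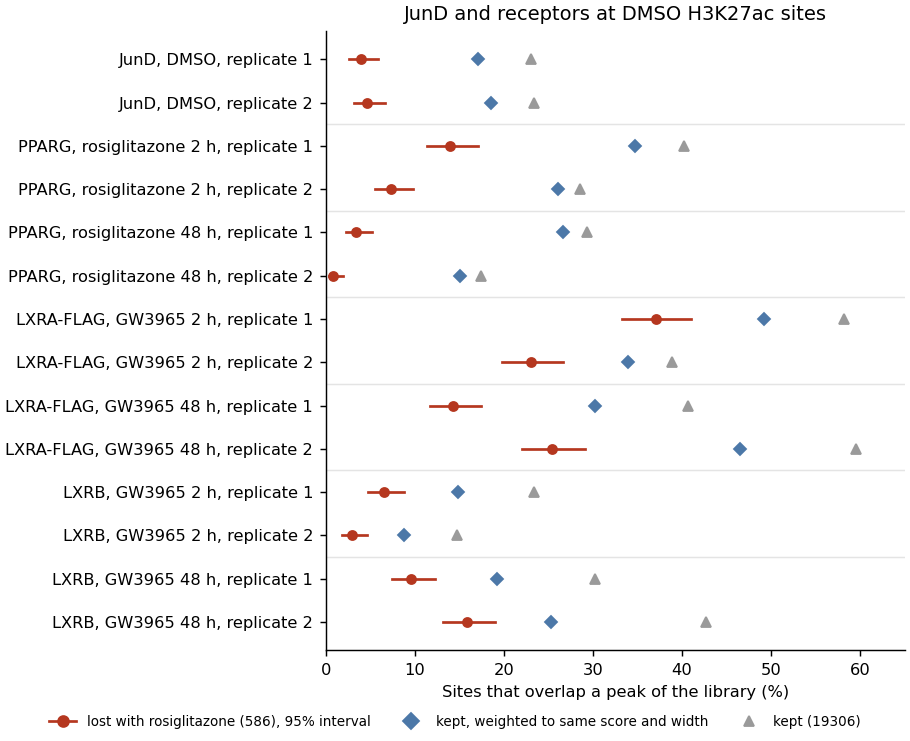
Percentage of DMSO H3K27ac sites that overlap a peak of each JunD, PPARG, LXRA-FLAG and LXRB library, for 586 lost sites (circles, with 95% Wilson intervals), weighted kept sites (diamonds) and all kept sites (triangles). Circles lie left of diamonds in each of the 14 libraries; the lowest is PPARG replicate 2 at 48 h with 0.853%, and the highest is LXRA-FLAG replicate 1 at 2 h with 37.0%.

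Lost sites with and without a GW3965 H3K27ac site differed in LXRA. An LXRA site at 2 h overlapped 90 of 291 lost sites that kept a GW3965 site, or 30.9% (25.9 to 36.5), and 40 of 295 that did not, or 13.6% (10.1 to 17.9). By LXRA library the shares were 48.5% and 25.8% in replicate 1 and 32.3% and 13.9% in replicate 2. With a lower DMSO score under 150 the LXRA site shares were 26.0% and 13.0% at lost sites and 41.2% and 20.5% at kept sites. The pattern is therefore not particular to lost sites. At 48 h LXRA was at 15.1% and 11.9%, LXRB at 7.22% and 8.14%, PPARG at 2 h at 6.19% and 5.08%, JunD at 3.44% and 2.71% and RNAP2 in DMSO at 31.6% and 33.2%, with overlapping intervals for each of these.

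In all, 415 lost sites, or 70.8% (67.0 to 74.4), overlapped no site of PPARG, LXRA, LXRB or JunD, against 42.7% of kept sites and 51.3% of weighted kept sites. Without any of these and without RNAP2 in DMSO-treated cells were 328, or 56.0%, against 34.8% of weighted kept sites.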

How the data were processed

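ChIP-seq of 17 groups with 2 libraries each was used. The authors made single-end reads and called the peaks of each library against an input; the submitters' processing notes name Bowtie, MACS and hg19. The deposited score is the peak caller's, whose formula is not given in the sources used here, with values from 100 to 3233. Track headers show 1 input per condition, shared by H3K27ac and RNAP2. Read depth is unknown here.

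Peaks were read as 0-based intervals, and coordinates are printed from 1. Peaks that overlapped by at least 1 bp were merged, and spans with a peak of both replicates were sites. Joins were written in Python 3.11.15 with pandas 2.3.3 and numpy 2.4.6 and checked on simulated intervals and against bedtools 2.31.1. Wilson intervals came from scipy 1.17.1, and plots from matplotlib 3.10.9. Weighting used lower DMSO scores cut at 125, 150, 200 and 300 and widths cut at 1000, 1500, 2000 and 3000 bp. No test was run, since sites of one library are not replicates. Sites named in detail were taken from the 10 with the highest lower DMSO score. All other named sites were chosen after their values were seen, also where the text does not mark them so. The members and classes were chosen with earlier results of these data known.

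RNA-seq counts were not used: linking sites to genes needs hg19 annotation, so the planned edgeR tests and gene lists were not analysed here. Site sequences were not analysed either. Alternatives changed the rosiglitazone rule, distance, score limit, span and libraries.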

Additional observations from a re-analysis of the deposited data

Results flagged for a closer look

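All 4 GW3965 H3K27ac scores were above both DMSO scores at 19 lost sites, or 3.24% (2.08 to 5.01), which is a lower share than the 7.88% of kept sites and 11.7% of weighted kept sites. With a missing GW3965 peak counted as below, all 4 lay below both DMSO scores at 17.4% of lost and 3.02% of weighted kept sites. The lost sites counted here include the 49 without a peak in any GW3965 library. The rosiglitazone side is set by the choice of the sites, and depth is unknown, so no difference between the drugs and no change between libraries is read from these scores. Such a difference was not tested. Of the 19, the site with the highest minimum over the GW3965 libraries was chr17:17722463-17724514, chosen after its values were seen. H3K27ac scored 107 and 245 in DMSO, 2719 and 1919 after 24 h of GW3965 and 2740 and 925.7 after 48 h. RNAP2 scored 311 and 284 in DMSO, 3100 in all 4 GW3965 libraries, 342 and 262 after 24 h of rosiglitazone, and 275 and no peak at 48 h. LXRA was called there at 2 h with scores of 326 and 121. A rosiglitazone H3K27ac peak lay 576 bp away.

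The next was chr9:95735745-95737553, with DMSO scores of 159.8 and 230.1 and a lowest GW3965 score of 275.83. LXRA scored 3021 and 1251 there after 2 h, and no RNAP2 peak was called in DMSO or with rosiglitazone. With GW3965, RNAP2 scored 286 in replicate 1 alone at 24 h, and 208 and 320 at 48 h. At chr8:143760040-143762683 the DMSO scores were 151 and 255 and the lowest GW3965 score was 261.73, with a rosiglitazone peak 11 bp from its edge.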

How the results depend on the processing

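With no rosiglitazone site of both replicates as the rule, 1503 sites were lost, with a GW3965 peak in any library at 95.8%, RNAP2 in DMSO at 37.9% and LXR at 31.9%. With 24 h alone there were 1155, with 94.9%, 40.5%, PPARG at 9.52% and LXR at 31.9%, and with 48 h alone 1062, with a GW3965 peak at 94.2%. A DMSO score of at least 200 left 56, with 100%, 50%, JunD at 1.79%, PPARG at 3.57% and LXR at 32.1%. The GW3965 share was 53.9% without replicate 1 of both times and 49.7% with a site of both replicates; these and the leaving out of GW3965 libraries were chosen after seeing the data. Leaving out single libraries gave 653 to 3112 sites, GW3965 shares of 73.2% to 93.4%, RNAP2 of 22.1% to 36.9%, JunD of 3.02% to 4.09%, PPARG of 5.36% to 6.61% and LXR of 19.2% to 30.4%; the lowest GW3965, RNAP2 and LXR shares and the 3112 came without DMSO replicate 1. The cause of these shifts was not tested. Other values stayed within 1.5 times the main count or within the interval of the main share.

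No paired analysis was possible because no result comes from a test. The planned tests of genes linked to sites and the AP1 motifs in site sequences were not run, since no annotation or genome of hg19 was used. Peak calls limit the values: a site with H3K27ac just under the score limit in all 4 rosiglitazone libraries counts as lost, and depth is unknown.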

Other observations

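Lost sites were spread over all chromosomes with DMSO sites. The share of DMSO sites that were lost ran from 1.53% (0.97 to 2.41) of 1176 on chromosome 6 to 4.41% (3.23 to 5.99) of 862 on chromosome 9. These 2 were picked as the extremes of all chromosomes. Within 5 Mb of the outermost peak of a chromosome on either side, as seen over all libraries, lay 124 lost sites, or 21.2% (18.05 to 24.7), against 13.4% of kept sites and 12.9% of weighted kept sites. Lost sites were as close to other DMSO sites as kept sites were, with a median distance of 14217 against 14090 bp, and 75 had another lost site within 50000 bp.

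At lost sites with no GW3965 peak either, 19 of 49 overlapped an RNAP2 site in DMSO-treated cells, 38.8% (26.4 to 52.8), and 11, or 22.4% (13.0 to 35.9), an LXR site, against 32.4% and 27.1% of all lost sites. The one with the highest lower DMSO score, chr19:34842058-34843126, scored 173 and 312 and had RNAP2 at 121 and 141 in DMSO.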
